A study of Mus musculus with 7 samples.

Results

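The set of 10 genes that encode fibronectin and matricellular proteins was followed through every cell type of the mouse mammary gland: Fn1, Sparc, Sparcl1, Spon1, Spon2, Thbs1, Thbs2, Tnc, Postn and Emid1. They were selected by symbol, and all 10 were found among the 27998 genes of the count matrix. The matrix held 13684 single cells from 7 nulliparous females in diestrus, 3 young mice of 3 to 4 months (Young A, B and C) and 4 aged mice of 13 to 14 months (Aged A, B, C and D), each contributing 1 library. All mice had the same mixed background of FVB, 129 and C57BL/6J, and no transgene or treatment is named for them. The cells came from dissociated abdominal #4 glands freed of lymph nodes. The deposited annotation assigns each cell to 1 of 13 cell types, including myoepithelial cells, alveolar (AV) and hormone-sensing (HS) luminal cells, fibroblasts, pericytes, and vascular endothelial cells. The comparison of aged with young mice addresses how the cells that make this part of the extracellular matrix change with age.

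Matricellular proteins are secreted into the extracellular matrix but serve mainly to adjust how cells hold on to it, rather than as its scaffold. Fibronectin is the fibril-forming glycoprotein on which other matrix proteins assemble, and cells bind it through integrins. SPARC (osteonectin) binds collagens and the related SPARC-like protein 1 (hevin) shares its fold, spondins and thrombospondins carry thrombospondin repeats, thrombospondins engage CD36 and CD47, and tenascin C and periostin appear where matrix is being remodelled. In the mammary gland these proteins lie in the stroma and next to the basement membrane, on which myoepithelial cells rest.

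The genes are spread over 8 chromosomes in the GRCm38 assembly, the build of the submitters' mm10 alignment. Sparc lies at chr11:55394500-55423183 and Emid1 at chr11:5106265-5152257, both on the minus strand, and both are protein-coding genes. Their levels fell together in aged myoepithelial cells and for this reason the 250 bases before the transcription start in RefSeq (GRCm38.p6, minus strand) are shown, at chr11:55420081-55420330 for Sparc and chr11:5152231-5152480 for Emid1. The Sparc window lies inside the span that GENCODE gives the gene, since GENCODE places its first start further upstream. The Emid1 window overlaps the GENCODE span of its gene in part, as that span reaches 5152257. Capitals mark the motif GGGCGG on either strand. A search for TATAAA and another for CCAAT, also on both strands, found no match in these windows.
Sparc: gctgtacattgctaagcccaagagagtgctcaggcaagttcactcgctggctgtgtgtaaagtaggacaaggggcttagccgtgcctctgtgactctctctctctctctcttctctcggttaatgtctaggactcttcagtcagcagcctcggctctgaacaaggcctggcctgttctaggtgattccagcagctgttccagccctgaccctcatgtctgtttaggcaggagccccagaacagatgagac
Emid1: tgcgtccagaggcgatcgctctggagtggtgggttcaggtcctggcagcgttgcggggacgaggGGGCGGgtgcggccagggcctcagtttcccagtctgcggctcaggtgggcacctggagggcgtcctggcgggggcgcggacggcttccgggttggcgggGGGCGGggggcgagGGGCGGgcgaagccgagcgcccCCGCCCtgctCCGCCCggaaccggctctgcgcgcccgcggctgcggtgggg
The Emid1 window held GGGCGG at 5 places and was 77.6% G or C, against 54% and no match for Sparc. The motif was found in 32.7% of the 32851 windows of this length, TATAAA in 12.4% and CCAAT in 33.8%. RefSeq entries were matched for 5 of the 10 genes.

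The libraries held 6652599 to 16999625 UMIs (unique molecular identifiers, each counting 1 captured transcript) and the cells 2714 to 17158. Levels are given as CPM (the UMIs of a gene per 1000000 UMIs of the same cell type in the same mouse). These 3′ counts do not grow with transcript length. Levels per mouse and cell type were used where the mouse had at least 3 cells of the type. Detection in pooled cells, the shares of UMIs by cell type and their recombination used all cells. Barcodes were written in a different format in young and aged mice, and 101 of 13583 distinct barcodes occurred in more than 1 mouse. Whether the libraries of young and aged mice were handled differently is not stated. If they were, that effect and one of age could not be told apart here. Fibroblasts, the richest source of these transcripts, numbered 184 to 1034 per young mouse and 15 to 121 per aged mouse. In them the 6 fibroblast markers (Col1a1, Col1a2, Col3a1, Pdgfra, Dcn and Lum) summed to 17871 to 19542 CPM in young and 14500 to 24444 CPM in aged mice. The study named fibroblasts by several of these genes, so their sum is a description and no check of the label. Col3a1 itself was lower in aged fibroblasts (log2 fold change −1.20, SE 0.25, adjusted p = 0.0189, edgeR quasi-likelihood test), and the other markers did not pass.

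Across cell types the 10 genes divided by their leading source, and 6 of them (Fn1, Sparc, Spon1, Spon2, Thbs2 and Postn) had their highest mean level in fibroblasts. Cell types were named from clusters of the same cells, and Fn1 served the study as a fibroblast marker, so these levels are a description and were not tested. Fn1 averaged 907 ± 465 CPM in fibroblasts (SD, n = 7 mice) and 173 ± 146 CPM in dendritic cells (n = 5), the next type, and was higher in fibroblasts in 5 of 5 mice that had both. Thbs2, a thrombospondin that lacks the TGF-β-activating sequence of thrombospondin 1, measured 174 ± 56.3 CPM in fibroblasts (n = 7) against 22.5 ± 11.8 CPM in Ma macrophages (n = 3). Spon1 (F-spondin) averaged 112 ± 64.0 CPM in fibroblasts and 13.1 ± 6.60 CPM in pericytes. Its relative Spon2 was shared between fibroblasts (157 ± 82.9 CPM) and myoepithelial cells (71.6 ± 80.9 CPM), and so was Postn, at 659 ± 371 and 317 ± 122 CPM. For Postn the order of these cell types held in only 5 of 7 mice.

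Sparc was abundant in 4 cell types. It averaged 2155 ± 1059 CPM in fibroblasts, 1866 ± 781 CPM in pericytes, 1727 ± 1242 CPM in vascular endothelial cells and 982 ± 450.1 CPM in myoepithelial cells (SD, n = 7 each), against 123 CPM in lymphatic endothelial cells. Over all mice the first 3 of these had no constant order, as fibroblasts exceeded pericytes in 5 of 7 mice and pericytes exceeded vascular endothelial cells in 4 of 7. The second of these orders followed age. Vascular endothelial cells were above pericytes in every young mouse (means 3033 and 2658 CPM) and below them in every aged mouse (748 and 1272 CPM). This reversal was not tested. Sparcl1 had a vascular pattern, with 1375 ± 582 CPM in pericytes and 538 ± 158 CPM in vascular endothelial cells, and pericytes were higher in 7 of 7 mice. Thbs1, which activates latent TGF-β and binds CD36 and CD47, was led by myoepithelial cells at 583 ± 112 CPM against 277 ± 107 CPM in pericytes, again in 7 of 7 mice. Emid1, an EMI-domain protein of the matrix, averaged 90.0 ± 94.7 CPM in myoepithelial cells. Tnc was scarce everywhere, at most 17.2 ± 12.3 CPM, in pericytes.

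**Figure D1:**
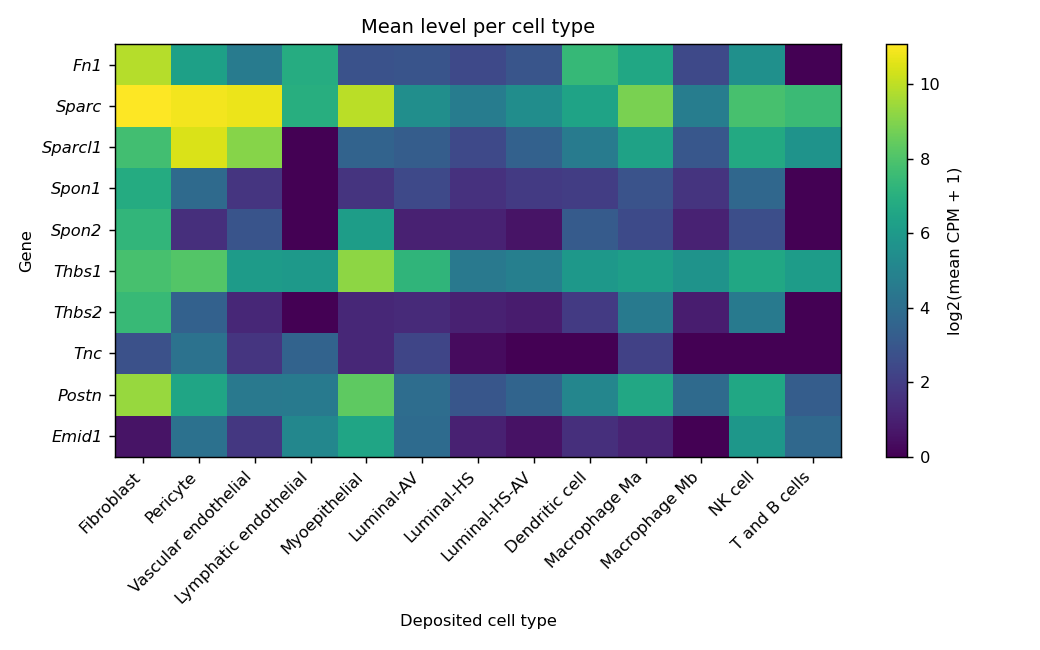
Mean level of each gene (rows) in each of the 13 deposited cell types (columns), as log2 of the mean CPM over mice plus 1. Fibroblasts lead for 6 of the 10 genes, pericytes for Sparcl1 and Tnc, and myoepithelial cells for Thbs1 and Emid1.

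Detection in single cells separated genes seen in most cells of a type from genes seen in a few. For these shares the cells of all mice, or of all mice of an age, were pooled, so mice with more cells weigh more. After each cell was thinned to 2000 UMIs, at least 1 UMI of Sparc was found in 94.8% of fibroblasts, 90.8% of pericytes, 82.0% of vascular endothelial cells and 66.9% of myoepithelial cells (99.0%, 98.0%, 92.8% and 84.0% before thinning), against 10.0% of T and B cells (15% before), a type that should lack it. That background itself differed with age, at 25.0% of young and 2.5% of aged T and B cells after thinning (35.0% and 5.0% before). In CPM it was 532, 474 and 258 in Young A, B and C and 0, 12.2, 39.5 and 0 in Aged A to D, from at most 15 UMIs per mouse, and in dendritic cells Sparc measured 287, 36.2 and 94.7 CPM in the young mice and 0 in both aged mice with at least 3 such cells. Sparcl1 was found in 77.1% of pericytes and 60.0% of vascular endothelial cells after thinning (94.6% and 82.7% before), against 1.7% of T and B cells (3.3% before). Median depth was 4384.5 and 4565 UMIs in young and aged T and B cells and 4352 to 5304 UMIs in myoepithelial cells, fibroblasts, pericytes and vascular endothelial cells of either age. Spon1, by contrast, was found in 11.4% of thinned fibroblasts (23.5% before).

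The genes whose pattern over the 13 cell types was most like that of a member, among 5292 genes that reached 50 CPM in some type, are given as a description. For Sparc these were Col4a1 (Pearson r = 0.956 over 13 types), a basement membrane collagen, then Cxcl12 (r = 0.949) and Ppic (r = 0.943). For Sparcl1 they were the endothelial genes Ly6c1 (r = 0.945), Rgcc (r = 0.925) and Flt1 (r = 0.918). For Thbs2 they were Adgrd1 (r = 0.993), Col3a1 (r = 0.982) and Col5a3 (r = 0.977), and for Spon1 Pla1a (r = 0.948), Col1a1 (r = 0.945) and Cd248 (r = 0.944). The leading gene was Ctsk for Fn1 (r = 0.906), Mmp2 for Spon2 (r = 0.893), Palld for Thbs1 (r = 0.936), Adamts2 for Postn (r = 0.935), Serpine2 for Tnc (r = 0.912) and Aars for Emid1 (r = 0.920). The points share their libraries, and types with few cells are measured shallowly.

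In fibroblasts, the main source, Fn1 fell with age while the other members tested did not pass the test. Fn1 measured 1231, 1260.4 and 1632 CPM in Young A, B and C and 565, 408, 709 and 539 CPM in Aged A to D. Every aged mouse lay below every young mouse, and the level was 2.35-fold lower with age (log2 fold change −1.23, SE 0.23, adjusted p = 0.00896, edgeR quasi-likelihood test with Benjamini-Hochberg adjustment over all genes tested). A gene was called when its adjusted p was under 0.05 and its change at least 1.5-fold. Among 5513 genes tested in fibroblasts 3.17% were called, 1.11% as lower in aged mice, and of the 10 members 8 passed the filter on low counts and 1 was called. The study singled out the fall of Fn1 on these same samples, so its direction here is not independent evidence. The call rested on Young C, since without that mouse the adjusted p was 0.0534.

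Sparc in fibroblasts measured 3732, 1959.7 and 3517 CPM in the young and 903, 1829, 1583 and 1563 CPM in the aged mice. The groups did not overlap, but Young B lay close to Aged B, and the log2 difference of −0.98 (SE 0.26) did not pass (adjusted p = 0.0621), although it did without Young B (−1.20, adjusted p = 0.0405). The groups overlapped for Spon2 (276, 149.8 and 219 CPM in young and 39.6, 184, 165 and 64.0 CPM in aged mice, adjusted p = 0.197). Postn differed by −0.65 (SE 0.39, adjusted p = 0.399) and Thbs2 by −0.49 (SE 0.27, adjusted p = 0.342), both with overlapping groups. Spon1, at 90.5, 92.2 and 54.0 CPM in young and 98.3, 219, 50.6 and 183 CPM in aged mice, had a difference of 0.94 (SE 0.36, adjusted p = 0.167). Thbs1 (0.49, SE 0.34) and Sparcl1 (0.16, SE 0.42) did not pass either. Emid1 and Tnc were too low to be tested. Aged C and Aged D contributed 15 and 17 fibroblasts, which limits the precision of every value here. Markers of other cell types were lower in aged fibroblasts as well, with immune markers at 65.7 to 357 CPM in young and 11.5 to 38.0 CPM in aged mice and vascular endothelial markers at 45.7 to 110.0 and 25.3 to 29.3 CPM, and their part in these results was not tested.

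In myoepithelial cells, the contractile layer against the basement membrane, 3 members fell with age and Thbs1 and Postn, which these cells also make in quantity, did not. Spon2 measured 188, 83.6 and 179 CPM in Young A, B and C and 8.27, 25.5, 13.8 and 3.42 CPM in Aged A to D, a 10.5-fold lower level (log2 fold change −3.40, SE 0.41, adjusted p = 3.49e-05). Emid1 measured 264, 167 and 94.1 CPM in young and 21.1, 54.4, 18.5 and 10.3 CPM in aged mice, a 6.04-fold lower level (−2.59, SE 0.41, adjusted p = 0.000277). For Sparc the young mice were close together at 1518, 1401 and 1422 CPM and the aged mice lay at 733, 754, 637 and 411 CPM, a 2.14-fold lower level (−1.10, SE 0.20, adjusted p = 0.00085). No aged mouse overlapped a young one for any of the 3 genes. They were called under each of the 13 alternative settings, including without any 1 mouse. Immune markers (Ptprc, Cd74 and Lyz2) summed to 167 to 253 CPM in young and 34.4 to 73.0 CPM in aged myoepithelial cells, and their part was not tested.

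Of 6 members tested in myoepithelial cells 3 were called, all lower, against 27.6% of the 6740 genes tested, 14.8% as lower. The study named these 3 genes in this comparison on the same samples, so they are not independent evidence of direction. Thbs1 measured 440.0, 634 and 766 CPM in young and 482, 533, 565 and 659 CPM in aged mice. The groups overlapped fully, with a log2 difference of 0.00 (SE 0.22, adjusted p = 0.998). Postn measured 268, 113 and 399 CPM in young and 480.5, 334, 386 and 237 CPM in aged mice (0.51, SE 0.30, adjusted p = 0.219). Without Young C its difference passed, at 0.93 with an adjusted p of 0.041. Sparcl1 was near 10 CPM and did not pass (−0.87, SE 0.67, adjusted p = 0.356). The share of cells with a UMI pools the cells of all mice of an age, so it is a description without a spread over mice. Young A gave 187 of the young cells, against 40 and 54 in Young B and C. Aged B gave 662 of the aged cells, against 125 to 340 in the other aged mice. After thinning, Emid1 was found in 34.9% of young and 5.8% of aged myoepithelial cells and Spon2 in 25.6% and 2.2% (65.1% and 11.7%, and 51.2% and 5.5%, before thinning), whereas Postn was found in 37.7% and 37.2% (60.9% and 56.7% before).

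In vascular endothelial cells Sparc, Postn and Spon2 fell with age, and Sparc gave the smallest adjusted p of any member in any cell type. Sparc measured 2984, 2709 and 3406 CPM in Young A, B and C and 720.4, 923, 762 and 587 CPM in Aged A to D. The lowest young mouse was well above the highest aged mouse, and the level was 3.20-fold lower (log2 fold change −1.68, SE 0.15, adjusted p = 5.25e-06). Postn was scarce, at 36.4, 16.9 and 68.7 CPM in young and 5.30, 3.49, 8.02 and 10.8 CPM in aged mice (−2.03, SE 0.48, adjusted p = 0.00591). Spon2 was scarcer, at 16.5, 7.62 and 15.1 CPM in young and 0, 2.79, 1.78 and 0.635 CPM in aged mice (−2.79, SE 0.55, adjusted p = 0.00193). It fell below the filter on low counts, and so was not tested, when Aged D or Young A was left out. Markers of other types also moved in these cells. Pericyte markers (Rgs5, Des and Notch3) summed to 98.6 to 346 CPM in young and 5.59 to 66.8 CPM in aged mice, adipocyte markers to 52.0 to 62.6 CPM and 0, with all 3 at 0 in every aged mouse, erythroid markers to 1526 to 3805 and 6.98 to 272 CPM, and immune markers to 197 to 599 and 619 to 8700.3 CPM. Their part in these declines was not tested.

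Sparcl1, the other SPARC family member and the second vascular gene of the set, differed far less in the same cells. It measured 664, 759 and 679 CPM in young and 470.4, 390.4, 414 and 388 CPM in aged mice, without overlap, and its 1.32-fold lower level had an adjusted p of 0.0408 but was under the 1.5-fold minimum (−0.40, SE 0.14). The mean CPM, 701 ± 51.3 in young and 416 ± 38.3 in aged mice (SD, n = 3 and 4), differed by more than that minimum. These CPM carry no TMM scaling, which the fitted change does. No fit without such scaling was run, so whether Sparcl1 would then be called was not tested. Fn1 (−0.06, SE 0.52, adjusted p = 0.946) and Thbs1 (0.12, SE 0.42, adjusted p = 0.863) did not pass. Thbs1 turned on Young C, whose 149.8 CPM stood above the 31.6 to 73.1 CPM of the other mice, and without that mouse its difference was 1.00 with an adjusted p of 0.00883. Of 6 members tested 3 were called, all lower, while 26.7% of 7864 genes tested were called, 12.0% as lower.

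Pericytes, the contractile cells around small vessels, showed the SPARC pair moving in opposite directions. Sparc measured 2585, 2617 and 2771 CPM in Young A, B and C and 969, 1754, 1131 and 1235 CPM in Aged A to D, a 1.86-fold lower level (log2 fold change −0.90, SE 0.20, adjusted p = 0.0116). Sparcl1 measured 673, 1014 and 969 CPM in young and 2451, 1616, 1357 and 1544 CPM in aged mice, a 2.19-fold higher level (1.13, SE 0.23, adjusted p = 0.00708). The groups did not overlap for either gene, and both were called under each of the 13 alternative settings. Other markers moved in the same cells. Vascular endothelial markers (Pecam1, Cdh5 and Eng) summed to 1421 to 1518 CPM in young and 632 to 1038 CPM in aged pericytes, against 1591 to 1887 and 1396 to 1592 CPM in vascular endothelial cells themselves, and AV markers to 361 to 680 and 577 to 2474 CPM with overlap. Erythroid markers summed to 13.7 to 36.8 CPM in young and 5.30 to 14559 CPM (median 17.0) in aged pericytes. Immune markers summed to 68.6 to 372 and 26.5 to 1432 CPM, and the ages overlapped for both lists. The pericyte markers lay at 1088 to 1706 and 1017 to 1389 CPM, and the part of these movements in the changes of Sparc and Sparcl1 was not tested. Aged mice gave 20 to 46 pericytes each and young mice 39 to 121, which limits the precision of these values. Thbs1 was higher in every aged than in every young mouse, at 472, 355, 249 and 249 against 133, 238 and 247 CPM, and missed the threshold (0.87, SE 0.28, adjusted p = 0.058), which it passed without Aged C (adjusted p = 0.0421). Fn1 (−1.54, SE 0.52, adjusted p = 0.0638) passed without Aged A (−2.31, adjusted p = 0.0124), whose 92.7 CPM was the highest of the aged mice. Postn did not pass (−0.48, SE 0.41, adjusted p = 0.487). Of 5 members tested 2 were called, while 11.8% of the 2601 genes tested were called.

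**Figure D2:**
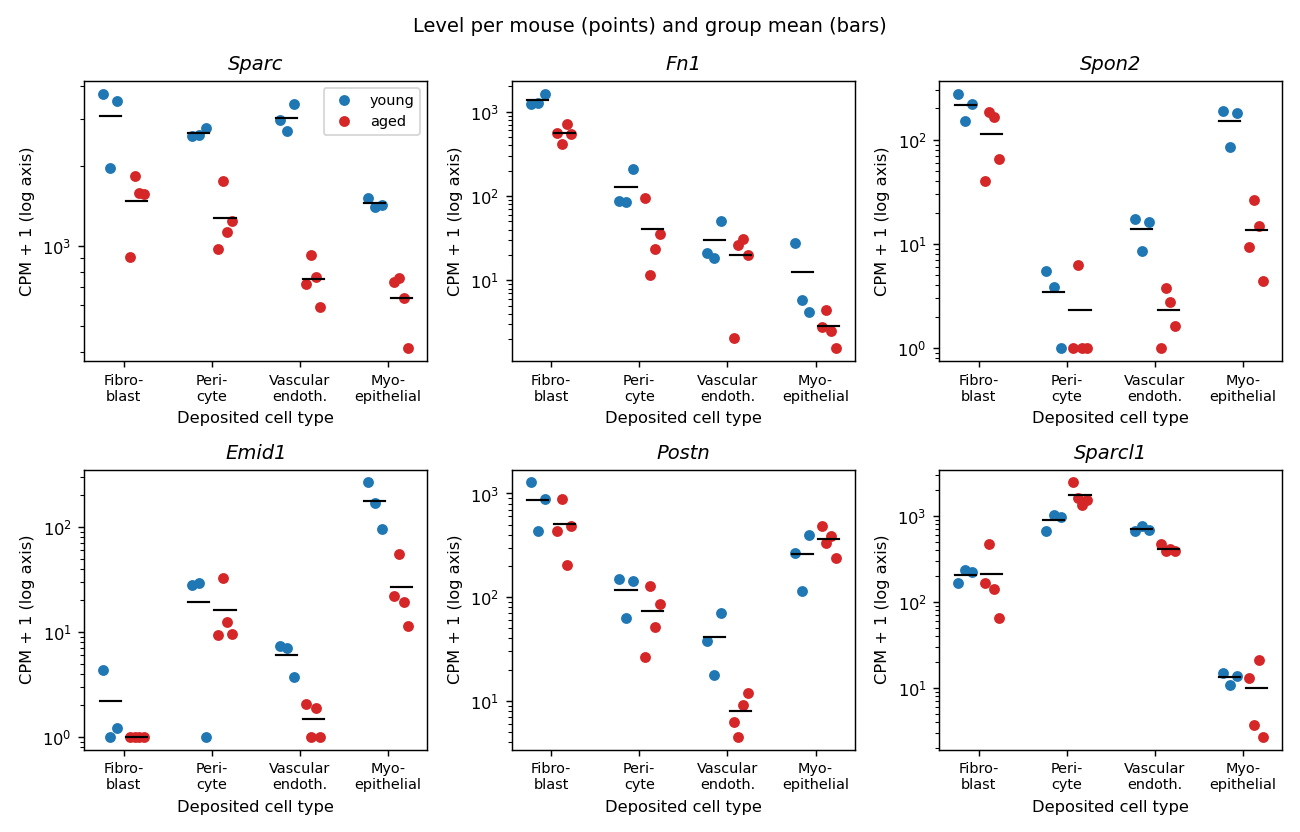
Level of 6 genes in each mouse (points, blue for the 3 young and red for the 4 aged mice) with the group mean (bars) in 4 cell types, as CPM plus 1 on a log axis. Aged mice lie below young mice for Sparc in all 4 types, for Spon2 and Emid1 in myoepithelial cells and for Fn1 in fibroblasts, and above them for Sparcl1 in pericytes.

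In the luminal epithelium most of these genes were far lower, and the members called there were called at low levels. In AV cells all 10 members passed the filter and 4 were called, all lower in aged mice, against 6.16% of the 11012 genes tested, 3.26% as lower. Sparc measured 139.6, 68.3 and 59.9 CPM in young and 10.7, 7.18, 9.68 and 7.41 CPM in aged mice (log2 fold change −3.09, SE 0.30, adjusted p = 0.000657), Fn1 5.40 to 19.4 against 0.161 to 1.48 CPM (−4.49, SE 0.58, adjusted p = 0.00207), Sparcl1 12.4 to 21.4 against 2.29 to 4.03 CPM (−2.03, SE 0.32, adjusted p = 0.00578) and Spon2 1.80 to 2.48 against 0 to 0.329 CPM (−3.29, SE 0.80, adjusted p = 0.0374). Spon2 lost its call without Young B (adjusted p = 0.0775) and fell below the filter without any 1 of the other mice. Thbs1, the most abundant member in AV cells, measured 95.8, 104 and 159.5 CPM in young and 164, 148, 296 and 95.5 CPM in aged mice and did not pass (0.81, SE 0.36, adjusted p = 0.207). Tnc differed by 2.18 (SE 0.64, adjusted p = 0.0722), Emid1 by −1.55 (SE 0.51, adjusted p = 0.0985), Postn by −1.58 (SE 0.53, adjusted p = 0.104), Thbs2 by −1.53 (SE 0.88, adjusted p = 0.327) and Spon1 by 0.86 (SE 0.56, adjusted p = 0.392). Tnc and Emid1 passed without Aged B (adjusted p = 0.0118 and 0.0286).

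In HS cells 5 members were tested and 2 were called, against 6.26% of 8457 genes. Thbs1 rose from 9.84, 7.96 and 13.2 CPM in young to 37.4, 11.7, 24.5 and 42.6 CPM in aged mice, with Aged B below Young C (log2 fold change 1.47, SE 0.39, adjusted p = 0.0477). Sparc fell from 64.9, 29.7 and 27.6 to 19.5, 4.87, 10.9 and 10.6 CPM without overlap (−1.77, SE 0.40, adjusted p = 0.0275). Both calls were fragile. Thbs1 lost its call without any 1 of the young mice and without Aged A, Aged C or Aged D (adjusted p = 0.0786 to 0.131), and Sparc without Young A (adjusted p = 0.0813), Aged C (0.0607) or Aged D (0.061). Fn1 (−1.73, SE 0.63, adjusted p = 0.124), Postn (−2.27, SE 0.75, adjusted p = 0.0943) and Sparcl1 (−1.39, SE 0.48, adjusted p = 0.109) did not pass, and Postn did so without Young B (adjusted p = 0.0394).

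**Figure D3:**
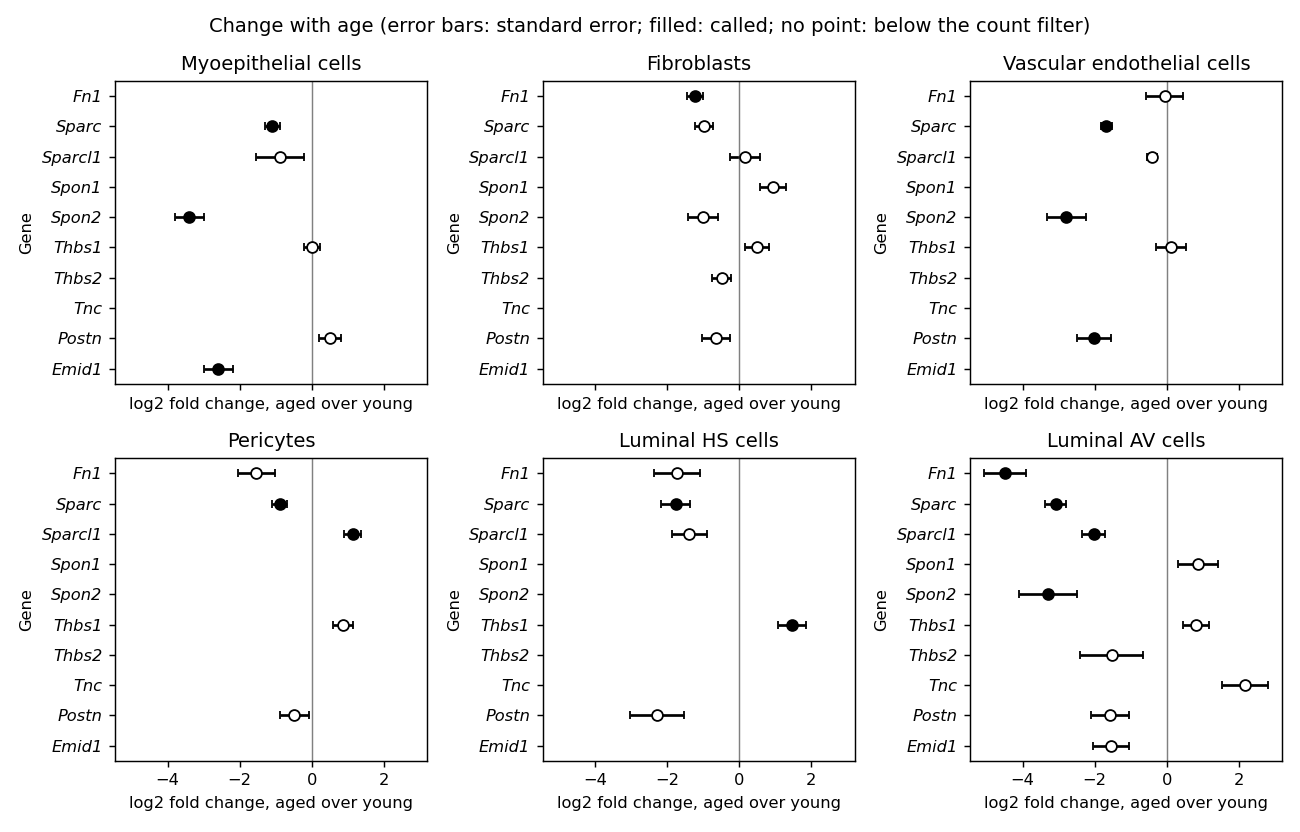
Log2 fold change of each gene from young to aged mice (horizontal axis, error bars 1 standard error) in 6 cell types, from edgeR on UMIs summed per mouse. Filled points were called, and genes without a point were below the filter on low counts; Sparc is filled in 5 of the 6 panels, on the side of lower levels in each.

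Fibroblast marker RNA was measured beside these declines, because the fibroblast markers also fell with age in other cell types. Their sum was 86.3 to 406 CPM in young and 10.2 to 35.7 CPM in aged AV cells, 442 to 818 and 54.8 to 188 CPM in myoepithelial cells, 411 to 677 and 28.3 to 109 CPM in pericytes, and 66.4 to 339 and 15.2 to 66.7 CPM in vascular endothelial cells. From the ratio of a member to these markers in the fibroblasts of the same mouse, the level that fibroblast RNA of that amount would carry was computed. For Sparc it came to 0.147% to 1.79% of the measured level in vascular endothelial cells, 0.181% to 4.39% in pericytes and 1.36% to 10.4% in myoepithelial cells, over mice of both ages. For Spon2 in young myoepithelial cells it came to 4.44% to 5.15%, and for Emid1 to at most 0.0447%. For Fn1 in myoepithelial cells it exceeded the measured level in all young mice, at 163% to 2105%. The estimate counts every marker UMI in another cell type as fibroblast RNA. The study listed Dcn among the matrix genes that fell with age in myoepithelial cells, so some marker RNA may be made by the cells themselves. A carried level above the measured one shows that the estimate can be too high. The estimate covers fibroblast RNA alone. In young T and B cells it came to 0.731% to 10.5% of the Sparc measured there, so most of that background, which averaged 422 CPM in young and 12.9 CPM in aged mice, was not covered by it. Set beside this, Sparc averaged 1447 and 634 CPM in young and aged myoepithelial cells, and the part of background RNA from other sources was not tested.

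In AV cells the carried level was as large as the measured one for some genes. For Fn1 it was 113% to 150% of the level measured in young mice, for Spon2 40.2% to 253% and for Sparc 13.9% to 104%, and its part in the declines in AV cells was not tested. In young vascular endothelial cells it was 9.54% to 47.8% for Postn and 7.30% to 25.1% for Spon2. In young HS cells it was 24.1% to 89.2% for Sparc. The estimate could not be used in aged HS cells, where Dcn, the only marker tested there, rose (log2 fold change 3.84, SE 0.58, adjusted p = 0.00569) and up to 5 of the 6 markers were at 0 in a mouse.

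Whether a change with age differed between cell types was tested within mice, as an interaction of type and age. The difference of Spon2 with age was lower in myoepithelial cells than in fibroblasts, by −2.30 on the log2 scale (SE 0.32, adjusted p = 1.67e-05), and this held under each of the 12 alternatives. The difference of Postn with age was 2.77 higher in myoepithelial than in vascular endothelial cells (SE 0.50, adjusted p = 0.00028), also under each of the 12 alternatives, and 1.51 higher in myoepithelial cells than in fibroblasts (SE 0.40, adjusted p = 0.0209), a call lost without Young A, Young B or Aged A and with DESeq2 (adjusted p = 0.0645 to 0.135). Against fibroblasts Spon2 was also further down in vascular endothelial cells (−1.82, SE 0.51, adjusted p = 0.0233), but this call was lost in 6 of 12 alternatives, among them without Young A, Young C, Aged B or Aged C.

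For Sparc no difference between cell types passed. Its change in myoepithelial cells differed from that in fibroblasts by 0.08 (SE 0.25, adjusted p = 0.928), that in pericytes by 0.01 (SE 0.25, adjusted p = 1), that in vascular endothelial cells by −0.62 (SE 0.24, adjusted p = 0.134), and the fall in vascular endothelial cells exceeded that in myoepithelial cells by 0.70 (SE 0.24, adjusted p = 0.0518). The third of these passed without Aged A (adjusted p = 0.0384) and the last without Aged D (adjusted p = 0.0439), without doublets (adjusted p = 0.0431) and without the filter on low counts (adjusted p = 0.0265). The opposite movement of Sparcl1 in pericytes was 0.97 above its difference in fibroblasts (SE 0.44, adjusted p = 0.359). In all, 3 of 10 members were called for myoepithelial cells against fibroblasts (4.89% of 8674 genes), 1 for vascular endothelial cells against fibroblasts (6.59%), 0 for pericytes against fibroblasts (0.761%, with 1 member, Sparcl1, at an unadjusted p under 0.05 and 0 called by DESeq2) and 2 for myoepithelial against vascular endothelial cells (13.3%). The remaining calls were Spon1 in myoepithelial cells against fibroblasts (−3.65, SE 1.04, adjusted p = 0.0353), which lost its call with DESeq2 and without Young A, Young C, Aged B or Aged D, and Fn1 in myoepithelial against vascular endothelial cells (−2.68, SE 0.85, adjusted p = 0.0325), which lost its call with DESeq2 and without Young A (−0.09), Young B, Aged C or Aged D. Both rest on myoepithelial levels of at most 7.55 and 26.4 CPM, too low to be tested there alone. The members not given above for a comparison did not pass in it, with adjusted p from 0.336 to 0.971 for myoepithelial cells against fibroblasts, 0.0661 to 0.884 for vascular endothelial cells against fibroblasts, 0.702 to 1 for pericytes against fibroblasts and 0.597 to 0.885 for myoepithelial against vascular endothelial cells.

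When the UMIs of all cells of a mouse were added together, 8 of 10 members were called, 7 as lower, against 32.7% of 12983 genes, 16.8% as lower. Fn1 went from 292, 181 and 516 CPM in young to 36.1, 7.41, 9.50 and 9.04 CPM in aged mice (17.4-fold lower, log2 fold change −4.12, SE 0.62, adjusted p = 0.0024), and Spon2 (−3.70, SE 0.52, adjusted p = 0.00192), Thbs2 (−3.25, SE 0.73, adjusted p = 0.0102), Sparc (−2.42, SE 0.16, adjusted p = 0.000323), Postn (−1.64, SE 0.48, adjusted p = 0.0267), Spon1 (−1.14, SE 0.32, adjusted p = 0.0241) and Sparcl1 (−1.11, SE 0.28, adjusted p = 0.015) fell as well. Thbs1 rose, from 108, 70.5 and 152 to 178, 191, 264 and 180.5 CPM (1.22, SE 0.29, adjusted p = 0.0128). Postn lost its call without Young A, Young C, Aged C or Aged D, and Spon1 without Young A, Young C or Aged D. Tnc (1.19, SE 0.44, adjusted p = 0.0616, and 0.0273 without Aged B) and Emid1 (−0.61, SE 0.67, adjusted p = 0.498) did not pass.

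Such totals join the number of cells of each type with the level within them, and fibroblasts held 21.6% of the UMIs of young and 2.11% of those of aged mice on average. The level per type of one age was therefore combined with the cell type shares of the other age. Shares were means over mice, while levels came from the UMIs of all mice of an age added together. No minimum number of cells was applied here, so the aged level of Ma macrophages came from 1 cell of Aged A. For Thbs2 the shares alone gave a log2 ratio of −2.74 and the levels alone −0.47, and for Fn1 −2.77 and −1.44. For Sparc the levels within types gave the larger part, −1.61 against −1.09 for the shares. Emid1 and Spon1 had opposing parts. With the aged shares alone Emid1 would be 1.43 higher, and with the aged levels alone 2.14 lower, whereas for Spon1 the shares gave −1.71 and the levels 0.75. Mice with more UMIs of a type weigh more in its level. Aged A held 580088 fibroblast UMIs, against 78978 to 173823 in the other aged mice. The ratios were not tested.

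**Figure D4:**
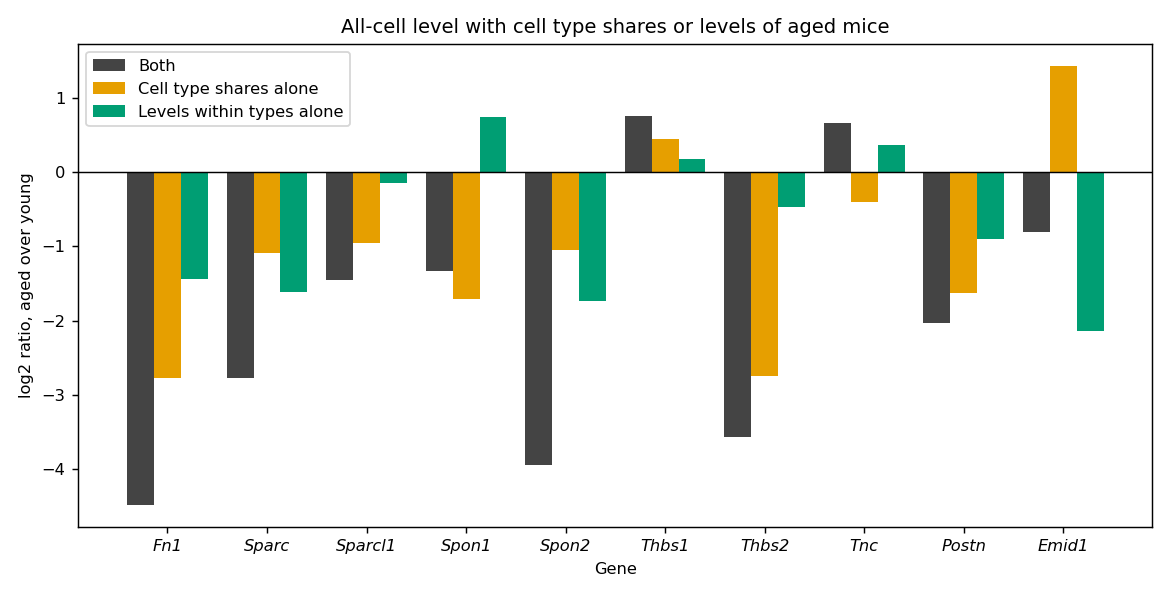
Log2 ratio of aged over young for the level in all cells, with the cell type shares and the levels within types both of aged mice (grey), the shares alone (orange) or the levels alone (green). For Emid1 and Spon1 the orange and green bars point in opposite directions.

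The cells that held the transcripts changed accordingly. In young mice fibroblasts held 79.5% to 92.2% of all Postn UMIs and myoepithelial cells 2.57% to 6.86%. In aged mice myoepithelial cells held 61.0% to 82.0% and fibroblasts 4.37% to 29.6%. Sparc UMIs lay mostly in fibroblasts (50.5% ± 30.0, SD, n = 3) and vascular endothelial cells (34.5% ± 25.2) in young mice, and in vascular endothelial (39.6% ± 10.2, n = 4) and myoepithelial cells (37.0% ± 11.1) in aged mice. Fibroblasts kept the largest share of Fn1, 90.8% to 94.5% in young and 56.3% to 87.9% in aged mice. For Thbs1 fibroblasts held 37.1% ± 20.2, myoepithelial cells 9.36% to 35.5% and AV cells 12.4% to 15.3% in young mice, and AV cells 30.6% to 80.4% and myoepithelial cells 13.6% to 59.6% in aged mice. These shares follow the number of cells captured of each type as well as the level per cell.

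A wider list of 28 other matricellular and related matrix genes did not move as a block. In vascular endothelial cells, where 3 members fell, 10 of the 14 genes of this list that were tested rose and 0 fell, while 26.7% of all genes tested were called (median log2 fold change 0.98 against −0.05 over all genes tested). Among those with the largest changes there were Emilin2 (2.94, SE 0.43, adjusted p = 0.000237), the CCN protein Nov (2.84, SE 0.39, adjusted p = 0.000145) and Tgfbi (1.74, SE 0.45, adjusted p = 0.0109). Immune markers were also higher in aged vascular endothelial cells, at 619 to 8700 CPM against 197 to 599 CPM in young mice. Their part in these rises was not tested. In myoepithelial cells, with 27.6% of all genes called, 1 of 14 rose (Spp1, osteopontin) and 4 fell, among them Wisp1 (−1.78, SE 0.49) and Fstl1 (−1.12, SE 0.26). In fibroblasts only Spp1 of 19 was called, as higher (3.17% of all genes), in pericytes 0 of 8 by edgeR (11.8%), in HS cells 2 of 5 (6.26%) and in AV cells 6 of 15, 3 in each direction (6.16%). Spp1 was called higher in each of the 5 cell types where it was tested, with the largest fitted change in AV cells. AV markers summed to 224 to 603 CPM in young and 355 to 1947 CPM in aged fibroblasts. They summed to 1334 to 1418 and 1013 to 1649 CPM in young and aged myoepithelial cells and 433 to 880 and 310 to 1062 CPM in HS cells. In vascular endothelial cells they lay at 368 to 770 and 404 to 797 CPM. The ages overlapped in each of these types, and the part of these markers in the rise of Spp1 outside AV cells was not tested.

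Among 17 receptors of these proteins, the thrombospondin receptor Cd36 was called as lower in each of the 6 cell types above. Its log2 fold change was −4.57 in fibroblasts (SE 0.71, adjusted p = 0.0034), −3.24 in AV cells, −3.20 in HS cells, −2.04 in myoepithelial cells, −1.73 in vascular endothelial cells and −0.97 in pericytes (SE 0.24, adjusted p = 0.018). Markers of other cell types fell in some of these cells too. Vascular endothelial markers were lower in aged fibroblasts and pericytes. Adipocyte markers went from 52.0 to 62.6 CPM in young to 0 in aged vascular endothelial cells. The part of RNA from other cells in the lower Cd36 was not tested. The syndecan Sdc4 rose in fibroblasts (1.25, SE 0.29), myoepithelial cells (1.40, SE 0.26) and pericytes (1.64, SE 0.41). The fibronectin receptor subunit Itga5 rose in myoepithelial (1.39, SE 0.37) and vascular endothelial cells (1.23, SE 0.19). Over the list, 4 rose and 3 fell of 13 tested in myoepithelial cells, 2 and 2 of 10 in vascular endothelial cells, 1 and 1 of 12 in fibroblasts, 2 and 1 of 7 in pericytes, 1 and 1 of 9 in HS cells and 0 and 2 of 14 in AV cells. The shares of all genes called in these types were 27.6%, 26.7%, 3.17%, 11.8%, 6.26% and 6.16%.

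No member passed the filter on low counts in Mb macrophages, where 1.16% of 859 genes were called, or in T and B cells, where 0.656% of 457 were. These types held 3 to 90 and 4 to 19 cells per mouse. Sparc, whose values in T and B cells are given above, did not overlap between the ages there and was called as lower without the filter and without Aged C or Aged D.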

How the data were processed

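Single cells of dissociated mammary glands were profiled with the 10x Chromium 3′ v2 chemistry, and the authors made the deposited count matrix, raw UMI counts per gene and cell, with Cell Ranger 2.0 on mm10, together with a cell type for each cell. No further filter on cells was applied here. Scrublet (in Scanpy 1.11.5, expected rate 0.06) marked 73 cells as doublets (0.533%), which were kept. The labels assign the 7 mice to the young and aged groups, with 1 library per mouse, so the mouse was the replicate.

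UMIs were summed per mouse and cell type (at least 3 cells). Genes were filtered with filterByExpr, scaled with TMM and tested with edgeR 4.0.16 (quasi-likelihood F test, R 4.3.3, Benjamini-Hochberg adjustment over all genes tested), and called where the adjusted p was below 0.05 and the fold change 1.5 or more. Differences between cell types were interaction terms in 1 fit over 4 types with the mouse as a block. Patterns over types were compared on log2(mean CPM + 1) among genes reaching 50 CPM in a type. Detection was computed over the pooled cells of an age or of all mice, also after thinning every cell to 2000 UMIs. The steps were also run on simulated counts with known changes. That check accepted a lower recovery for differences between cell types than for changes with age. A difference between types that did not pass is therefore no evidence of equal change. Intervals of sampling were not derived from cells, which are not replicates.

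All members were described wherever tested, with those not called between cell types given as ranges, and of each related list at most 4 called genes per cell type. The members and lists were chosen with earlier results of these data known. The study itself named Sparc, Emid1 and Spon2 in myoepithelial cells and Fn1 in fibroblasts as falling with age. Alternatives were DESeq2 1.42.0, RLE size factors, no filter, no fold minimum, at least 10 cells, no doublets, the label letter as a block, and each mouse left out. Gene positions are from GENCODE vM21 on GRCm38. Protein sequences were not used here.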

Additional observations from a re-analysis of the deposited data

Results flagged for a closer look

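In a group of 4 mice a value was set apart when its gap to the nearest other mouse exceeded Dixon's critical share of the group's range, which chance does for about 1 group in 20. Of 50 groups of aged mice looked at, 4 were, not many more than that rate. Thbs2 in fibroblasts was 189.6 CPM in Aged A against 119 to 127 CPM in the other aged mice. In all cells together, Aged A also stood apart for Fn1, at 36.1 against 7.41 to 9.50 CPM, and for Thbs2, at 12.6 against 1.41 to 1.77 CPM, and it was the aged mouse with the most fibroblasts (121 against 15 to 41). Thbs1 in all cells was 264 CPM in Aged C against 178 to 191 CPM.

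The change with age differed between cell types by an interaction test for 6 pairs of gene and types. In myoepithelial cells relative to fibroblasts the difference of log2 changes was −3.65 for Spon1, −2.30 for Spon2 and 1.51 for Postn. In vascular endothelial cells relative to fibroblasts it was −1.82 for Spon2. In myoepithelial relative to vascular endothelial cells it was −2.68 for Fn1 and 2.77 for Postn. Those of Spon2 between myoepithelial cells and fibroblasts and of Postn between myoepithelial and vascular endothelial cells were called under each alternative run.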

How the results depend on the processing

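Of 29 calls on members, 23 of change with age and 6 of a difference between types, 17 held under every alternative and all 29 kept their sign. With DESeq2 the number of members called was 2 in fibroblasts, and 1, 0 and 1 for the differences of myoepithelial cells from fibroblasts, vascular endothelial cells from fibroblasts and myoepithelial from vascular endothelial cells. Without the filter it was 6 in myoepithelial cells, 5 in HS cells, 5 in vascular endothelial cells, 4 in fibroblasts, 1 in T and B cells and 2 for vascular endothelial cells against fibroblasts, and the members' log2 changes in fibroblasts shifted by a median of −0.24. The change of Thbs1 in myoepithelial cells, 0.00 as reported, was −0.0067 with DESeq2, −0.0060 with RLE size factors, −0.11 with the replicate block and −0.026 without doublets. The difference of Sparc between myoepithelial cells and fibroblasts was −0.081 with DESeq2 and −0.082 with RLE size factors, and the change of Sparcl1 in fibroblasts −0.067 without the filter. The cause was not tested.

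Leaving out 1 mouse at a time, the number of members called ranged from 6 to 9 in all cells, 0 to 2 in fibroblasts, 3 to 5 in AV cells, 0 to 2 in HS cells, 3 to 4 in myoepithelial cells, 2 to 3 in pericytes, 2 to 4 in vascular endothelial cells and 0 to 1 in T and B cells. For differences between types it was 1 to 3 for myoepithelial cells against fibroblasts, 0 to 3 for vascular endothelial cells against fibroblasts, 0 to 1 for pericytes against fibroblasts and 1 to 2 for myoepithelial against vascular endothelial cells. The log2 change ranged from −1.29 to 0.46 for Emid1 in all cells, −0.34 to 0.43 for Fn1 and −0.29 to 1.00 for Thbs1 in vascular endothelial cells, −0.21 to 0.25 for Thbs1 in myoepithelial cells and −0.52 to 0.42 for Sparcl1 in fibroblasts, and the difference of Sparc from fibroblasts from −0.16 to 0.38 in myoepithelial cells and −0.14 to 0.34 in pericytes.

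The letters A, B and C name different animals, and same-lettered mice did not deviate together (correlations of deviations −0.174 to 0.372 over 9 comparisons). With the letter as a replicate block, 0 members were called in fibroblasts (Fn1 at adjusted p = 0.0609), 1 in HS cells, 3 in AV cells, 6 in all cells (Sparcl1 lost at adjusted p = 0.082), 3 in myoepithelial cells, 3 in vascular endothelial cells and 2 in pericytes. The block was not possible for differences between types, whose fit already holds the mouse. A minimum of 10 cells left too few mice for Mb macrophages and T and B cells.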

Other observations

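Among the members themselves, the patterns over the 13 cell types were most alike for Spon1 and Thbs2 (Pearson r = 0.94 of log2(mean CPM + 1)) and for Spon2 and Postn (r = 0.87), and least alike for Spon1 and Emid1 (r = −0.20). The points share their libraries.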
